A study of Homo sapiens with 6 samples.

Results

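The nuclear receptors are the subject of this section: 44 receptor genes taken by symbol from the 58825 genes of a table of polyadenylated RNA from the human hepatocellular carcinoma line MHCC97H. All 44 symbols were present, and 33 passed a filter on low counts and were tested. A list of 10 of the 44 was set apart here and is called liver-enriched (NR1H4, NR1H3, NR1I2, NR1I3, NR0B2, NR5A2, PPARA, RXRA, THRB and HNF4G). The levels of these 10 were not compared with liver tissue, and HNF4A is not among the 44.

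The 6 libraries fall into 2 groups, 3 labelled shPTBP1 (genotype given as PTBP1 knockdown) and 3 labelled shControl (genotype given as WT). Both groups are MHCC97H, a cultured line established from a human liver tumour, and both carry a short hairpin RNA. The hairpin against PTBP1, a splicing repressor that binds pyrimidine-rich RNA, is not named in the labels of the libraries, and the labels do not say that the replicates are separate cultures, though a legend of the study calls its data representative of independent experiments, so every p-value below is taken to measure the spread between these libraries, which may be technical. In bulk RNA, a change in the number of expressing cells and a change in RNA per cell cannot be told apart.

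Nuclear receptors are transcription factors whose activity is set, in most cases, by a small lipid-soluble ligand such as a steroid, thyroid hormone, a retinoid, a bile acid or a fatty acid. Many bind DNA as a heterodimer with a retinoid X receptor (RXR) at repeats of the hexamer AGGTCA, recruit corepressors without ligand and exchange them for coactivators when ligand binds. In hepatocytes a set of them senses bile acids, oxysterols, drugs and fatty acids and controls bile acid synthesis, drug clearance and lipid metabolism.

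The checks of the labels come first. PTBP1 was measured at 17.3, 16.9 and 17.96 FPKM (fragments scaled to transcript length and to library size) in libraries labelled shPTBP1, against 21.2, 16.4 and 27.4 FPKM in libraries labelled shControl. One library labelled shControl lay below all 3 labelled shPTBP1, and the difference did not pass the test (log2 fold change -0.29, adjusted p = 0.953 by edgeR's quasi-likelihood test with Benjamini-Hochberg adjustment). PTBP2, a relative whose RNA PTBP1 is known to repress, was at 3.80, 4.06 and 3.21 FPKM in libraries labelled shPTBP1, against 2.01, 1.88 and 0.61 FPKM in libraries labelled shControl, without overlap and with shControl 3 farthest from the other group (log2 fold change 1.32, unadjusted p = 0.0152, adjusted p = 0.718 by edgeR). Libraries held 68704509 to 85317970 counts. HBB, a globin gene, was at 345, 306 and 0.36 FPKM in libraries labelled shPTBP1 and at 519, 329 and 0.36 FPKM in libraries labelled shControl, so both libraries numbered 3 stood apart from the other 4. ISG15, an interferon-induced gene, was at 34.3, 37.5 and 42.0 FPKM in libraries labelled shPTBP1 and at 7.30, 8.78 and 44.5 FPKM in libraries labelled shControl, so for this gene the shControl 3 library sat with the group labelled shPTBP1. Over all genes tested, shControl 3 was nearer to shPTBP1 1 and 2 than to shControl 1 and 2 (by log2(CPM + 0.5)) for 62.8% of genes and 18 of 33 receptors. The shPTBP1 3 library was nearer to shPTBP1 1 and 2 than to shControl 1 and 2 for 56.1% of genes and 19 of 33 receptors. Differences of the receptors are therefore also given without single libraries where that moves them.

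The tissue is labelled as liver, yet the hepatocyte markers were at or near 0. Of 12 such genes, 10 were below 0.1 FPKM in every library, ALB, APOB, TTR, TF, APOH and FGB were listed at 0 FPKM in all 6 (TF with up to 11 counts), and the highest value was 0.22 FPKM for SERPINA1. Their summed level was 0.10 to 0.28 FPKM in libraries labelled shPTBP1 and 0.18 to 0.32 FPKM in libraries labelled shControl. Of 6 fibroblast markers, 3 were at 1 FPKM or more in every library, and the summed level was 40.1 to 54.3 FPKM in libraries labelled shPTBP1, against 29.3 to 37.2 FPKM in libraries labelled shControl. COL3A1 made most of that sum, COL1A2 was at 0 FPKM in all libraries, and DCN and LUM did not exceed 0.06 FPKM. Of 5 leukocyte markers CD68 alone was at 1 FPKM or more in every library, and the summed level was 9.30 to 11.7 FPKM in libraries labelled shPTBP1 and 4.48 to 8.66 FPKM in libraries labelled shControl, while PTPRC stayed at or below 0.24 FPKM. Of 5 endothelial markers none was at 1 FPKM or more in every library (summed level 0.27 to 1.24 FPKM in libraries labelled shPTBP1 and 0.19 to 1.73 FPKM in libraries labelled shControl), and 5 red cell markers summed to 0.88 to 656 FPKM in libraries labelled shPTBP1 and 1.09 to 989 FPKM in libraries labelled shControl, the low ends being the libraries numbered 3. The part of these marker genes in the differences of the receptors was not tested.

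Most of the liver-enriched receptors were low or not detected. NR1H3 and RXRA were the 2 of 10 that reached 1 FPKM in every library, and 5 of 10 stayed below 0.1 FPKM in all 6: NR1H4 (FXR, the bile acid receptor), NR1I2 (PXR, the main drug sensor), NR0B2 (SHP, the FXR-induced repressor of bile acid synthesis), NR5A2 (LRH-1) and HNF4G. NR0B2 had 0 counts in every library, which allows up to 3 counts or 0.0352 to 0.0437 CPM (counts scaled to library size), a limit for counting error alone. NR0B2 shares 2487 bases with NUDC on the opposite strand, which was at 59.77 to 74.79 FPKM over all libraries. HNF4G, the highest of the 5, was at 0.06, 0.04 and 0.04 FPKM in libraries labelled shPTBP1 and at 0.03, 0.01 and 0.04 FPKM in libraries labelled shControl. NR1H4 had counts in the shControl 3 library alone, 4 in all.

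**Figure D1:**
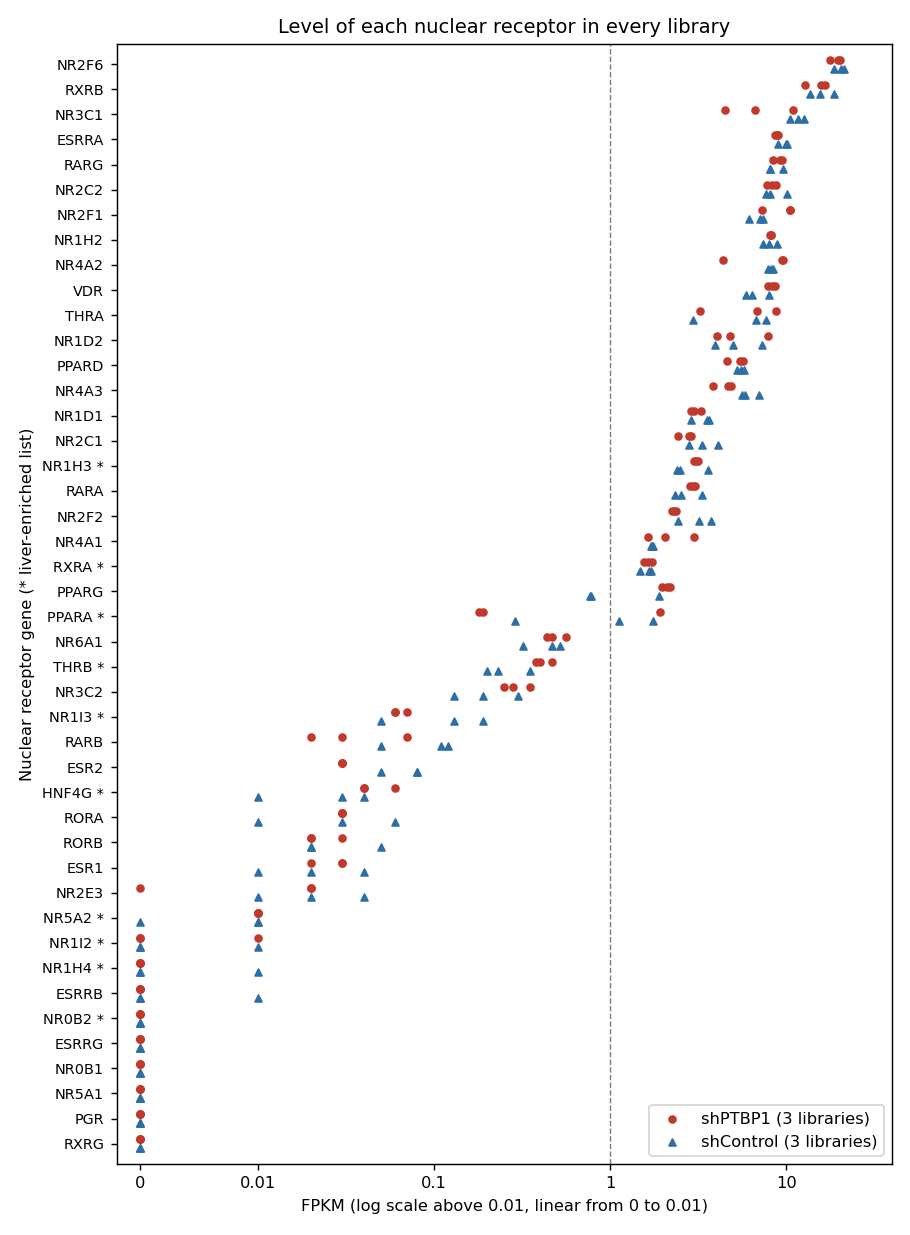
FPKM of all 44 nuclear receptors in each of the 3 libraries labelled shPTBP1 (red circles, upper in each row) and the 3 labelled shControl (blue triangles, lower), ordered by the mean over 6 libraries; the axis is linear from 0 to 0.01 and logarithmic above, the dashed line marks 1 FPKM, and asterisks mark the liver-enriched receptors. The 21 receptors at 1 FPKM or more in every library include NR1H3 and RXRA of the liver-enriched receptors, and 6 receptors lie at 0 throughout.

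NR1H3 encodes LXR-alpha, the oxysterol receptor of liver and macrophages. It was at 3.06, 3.16 and 2.98 FPKM in libraries labelled shPTBP1, against 2.50, 2.41 and 3.58 FPKM in libraries labelled shControl. The groups overlapped, with shControl 3 the highest library (log2 fold change 0.14 ± 0.18 SE, adjusted p = 0.980 by edgeR). Without shControl 3 it was 0.33 (unadjusted p = 0.0362, adjusted p = 0.261), and without shControl 2 it was 0.041. ACP2, a gene on the opposite strand that shares 541 bases with NR1H3, was at 7.15, 10.2 and 7.59 FPKM in libraries labelled shPTBP1, against 4.96, 4.52 and 4.77 FPKM in libraries labelled shControl, without overlap. RXRA, the RXR of liver, was at 1.64, 1.73 and 1.56 FPKM in libraries labelled shPTBP1 and at 1.66, 1.71 and 1.47 FPKM in libraries labelled shControl. Its groups overlapped, with all values between 1.47 and 1.73 FPKM (log2 fold change 0.05 ± 0.13 SE, adjusted p = 0.992 by edgeR).

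PPARA, the fatty acid receptor that drives fatty acid oxidation in liver, was spread more widely than the other liver-enriched receptors above 0.1 FPKM. It was at 0.19, 1.92 and 0.18 FPKM in libraries labelled shPTBP1 and at 1.12, 0.29 and 1.74 FPKM in libraries labelled shControl. The 3 lower libraries were at or below 0.29 FPKM and the 3 upper ones at or above 1.12 FPKM, and the 2 sets cut across the labels. The fitted log2 fold change was -0.43 ± 1.01 SE (adjusted p = 0.991 by edgeR), and without shPTBP1 2 it was -2.45 (adjusted p = 1.00). NR1I3 encodes CAR, the other drug sensor of liver. It was at 0.07, 0.06 and 0.06 FPKM in libraries labelled shPTBP1 and at 0.19, 0.05 and 0.13 FPKM in libraries labelled shControl, with shControl 2 below all other libraries. It shares 1081 bases with TOMM40L on the opposite strand, a gene at 9.44, 10.4 and 9.26 FPKM in libraries labelled shPTBP1 and at 3.25, 10.5 and 8.91 FPKM in libraries labelled shControl. The library kit marked the strand, but whether the counting used it is not given in the sources used here, so reads of such opposite-strand pairs cannot be told apart.

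Across the whole family the levels ranged widely. Averages of at least 10 FPKM were found for 2 receptors, 1 to 10 FPKM for 20, 0.1 to 1 FPKM for 4 and below 0.1 FPKM for 18. At 1 FPKM or more in every library stood 21 of 44 receptors (47.7%), beside 48.1% of the genes with a protein-coding transcript. In all libraries 0 counts were listed for 6 receptors: NR0B1 (DAX-1), NR0B2, NR5A1 (SF-1), PGR (progesterone receptor), RXRG and ESRRG. ESRRB, NR1H4, NR1I2, NR2E3 and NR5A2 had a few counts and did not pass the filter. The FPKM values summed over all receptors were 153, 146 and 136 in libraries labelled shPTBP1 and 145, 145 and 158 in libraries labelled shControl.

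The orphan receptor NR2F6 (EAR2), a member of the COUP-TF group that mostly represses transcription, had the highest level. It was at 20.2, 17.7 and 19.6 FPKM in libraries labelled shPTBP1, against 21.1, 18.5 and 20.4 FPKM in libraries labelled shControl. The groups overlapped (log2 fold change -0.04 ± 0.11 SE, adjusted p = 0.993 by edgeR). RXRB, a heterodimer partner, came next at 16.7, 12.8 and 15.7 FPKM in libraries labelled shPTBP1 and at 15.6, 13.5 and 18.7 FPKM in libraries labelled shControl. RXRB exceeded RXRA in 6 of 6 libraries, with a mean level 9.51 times as high, and RXRG had no counts. It shares 244 bases with SLC39A7 on the opposite strand, which was at 97.3 to 111 FPKM in libraries labelled shPTBP1 and at 102 to 114 FPKM in libraries labelled shControl.

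ESRRA, an orphan receptor of the oestrogen-related group that controls mitochondrial genes, was at 8.83, 8.57 and 8.99 FPKM in libraries labelled shPTBP1 and at 9.90, 8.99 and 10.1 FPKM in libraries labelled shControl. The highest library labelled shPTBP1 equalled the lowest labelled shControl (log2 fold change -0.11 ± 0.11 SE, adjusted p = 0.975 by edgeR). ESRRA shares 284 bases with TRMT112 on the opposite strand, which was at 30.52 to 35.37 FPKM over all libraries. RARG, a retinoic acid receptor, was at 9.41, 9.18 and 8.42 FPKM in libraries labelled shPTBP1 and at 8.07, 8.10 and 9.51 FPKM in libraries labelled shControl. Its groups overlapped, shControl 3 being the highest library. NR2C2 (TR4), an orphan receptor, was at 8.25, 8.69 and 7.79 FPKM in libraries labelled shPTBP1 and at 8.11, 10.03 and 7.64 FPKM in libraries labelled shControl. Both the highest and the lowest value lay in the group labelled shControl. On the opposite strand NR2C2 shares 6814 bases with MRPS25 (6.52 to 13.01 FPKM) and 841 bases with FGD5-AS1 (21.46 to 26.15 FPKM).

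In the subgroups given here, whose members share a ligand, 1 form led in every library. ESR1 and ESR2, at most 0.04 and 0.08 FPKM, were not compared in this way. RARG was 3.10 times as high as RARA by mean FPKM and RARB averaged 0.0667 FPKM. NR1H2 (LXR-beta) was 2.75 times as high as NR1H3. THRA, a thyroid hormone receptor, was 17.8 times as high as THRB. NR3C1, the glucocorticoid receptor, was 37.9 times as high as NR3C2, the mineralocorticoid receptor, and both are compared here per length of transcript. PPARD, the PPAR form found in most tissues, was 3.32 times as high as PPARG, whose range overlapped that of PPARA. For each of these pairs, apart from PPARG and PPARA, the ranges over 6 libraries did not meet.

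None of the 33 tested receptors differed between the groups at an adjusted p under 0.05 (edgeR), beside 6 of 19393 genes, or 0.0309%. At an unadjusted p under 0.05, 3 receptors were higher (PPARG, THRB and NR2F1) and 2 lower (NR4A3 and ESR2), 5 of 33 in all. Of all genes tested 5.69% passed, 3.58% higher and 2.11% lower. The FPKM ranges of the groups did not overlap for 5 of 33 receptors (PPARG and THRB above, NR4A3, ESR2 and NR2F2 below). Of all genes tested 11.9% did not overlap, 5.13% above and 6.72% below. The receptors had a median log2 fold change of -0.03, and all genes tested a median of -0.01. DESeq2, run on the same counts, also called 0 receptors at an adjusted p under 0.05 (0.726% of all genes with an adjusted p), with 7 of 38 at an unadjusted p under 0.05 (4.42% of all genes), and limma on log2(FPKM + 1) called 0 (0.0749% of all genes it tested), with 4 of the 22 receptors it tested at an unadjusted p under 0.05 (6.91% of all genes it tested).

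**Figure D2:**
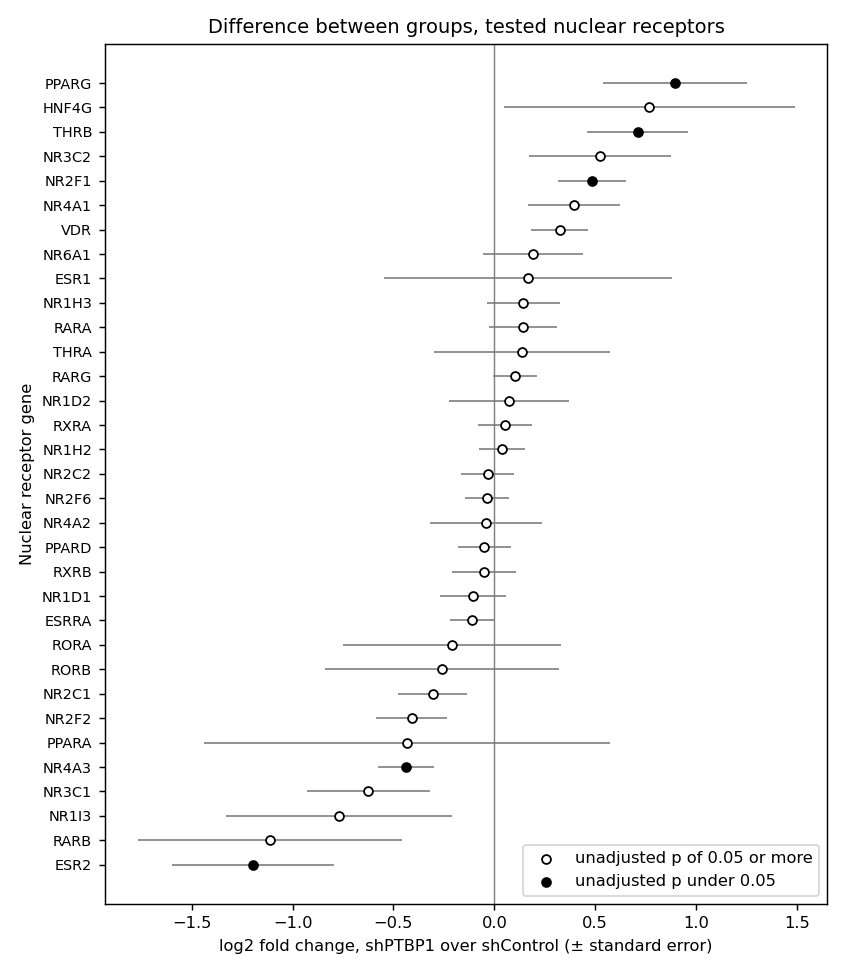
Log2 fold change of the 33 tested nuclear receptors, libraries labelled shPTBP1 over those labelled shControl, with the standard error as a bar; filled points have an unadjusted p under 0.05 by edgeR's quasi-likelihood test and open points do not. The 5 filled points are PPARG, THRB and NR2F1 above 0 and NR4A3 and ESR2 below 0, and none of the 33 has an adjusted p under 0.05.

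To place the members with separated groups on the genome, the 250 bases before annotated transcript starts were read for 39 of the 44 receptors from RefSeq (GRCh38.p14), which had 92 such windows for them; NR0B2, HNF4G, NR4A2, VDR and NR2F6 had no entry. Those of PPARG, THRB and NR4A3 are shown because these receptors were above 0.1 FPKM with groups that did not overlap. NR2F2, of the same kind, is not shown, since its start nearest the first base of the gene lies far inside the gene. PPARG has starts at the first base of the gene (chr3:12287118-12287367, plus strand) and 1692 bases further in (chr3:12288810-12289059, plus strand). The window of THRB lies on chr3:24495709-24495958, minus strand, with a start 136 bases before the gene of the deposited table. The window of NR4A3 lies on chr9:99821635-99821884, plus strand, with a start 30 bases into the gene. Capitals mark AGGTCA, the half-site of many nuclear receptors, in the PPARG and THRB windows, and TGACGT, the core of the cyclic AMP response element, in the NR4A3 window, searched on both strands.
PPARG, first start: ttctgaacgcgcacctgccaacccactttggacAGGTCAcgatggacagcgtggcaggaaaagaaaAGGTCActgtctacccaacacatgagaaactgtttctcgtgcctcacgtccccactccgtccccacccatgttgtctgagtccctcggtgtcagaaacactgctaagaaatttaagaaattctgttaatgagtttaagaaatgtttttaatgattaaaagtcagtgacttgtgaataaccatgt
PPARG, second start: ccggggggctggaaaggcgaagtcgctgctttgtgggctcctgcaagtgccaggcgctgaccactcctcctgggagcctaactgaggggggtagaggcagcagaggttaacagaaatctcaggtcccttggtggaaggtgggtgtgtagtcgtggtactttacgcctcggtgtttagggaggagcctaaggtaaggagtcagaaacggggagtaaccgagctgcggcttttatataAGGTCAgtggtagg
THRB: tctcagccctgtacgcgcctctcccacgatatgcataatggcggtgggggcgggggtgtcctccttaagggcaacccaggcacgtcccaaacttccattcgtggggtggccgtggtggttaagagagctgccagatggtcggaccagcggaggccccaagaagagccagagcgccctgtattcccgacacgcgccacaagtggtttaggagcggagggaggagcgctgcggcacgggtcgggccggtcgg
NR4A3: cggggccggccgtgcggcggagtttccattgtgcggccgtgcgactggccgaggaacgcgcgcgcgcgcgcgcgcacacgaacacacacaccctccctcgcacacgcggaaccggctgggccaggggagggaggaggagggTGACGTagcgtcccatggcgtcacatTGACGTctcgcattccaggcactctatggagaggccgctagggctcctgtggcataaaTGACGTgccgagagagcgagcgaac

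AGGTCA or its reverse complement TGACCT stood in 12.1% of all 35116 windows of this length and in 14 of the 92 receptor windows. The first PPARG window holds 2 copies and the second 1, and the THRB window holds none. TGACGT or its reverse complement ACGTCA stood in 7.10% of all windows and in 6 of the 92 receptor windows, and the NR4A3 window holds 3 copies. These motifs do not overlap each other in the windows shown, and a match of letters is a description of the sequence alone.

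PPARG, the receptor that governs fat cell formation and lipid storage, had the largest positive difference among tested receptors. It was at 1.98, 2.19 and 2.11 FPKM in libraries labelled shPTBP1, against 0.77, 0.78 and 1.9 FPKM in libraries labelled shControl. Every library labelled shPTBP1 lay above every one labelled shControl, but shControl 3 came within 0.08 FPKM of the lower edge of the other group while shControl 1 and 2 were far below. The log2 fold change was 0.90 ± 0.36 SE, with an unadjusted p of 0.0402 and an adjusted p of 0.869 by edgeR. Without shControl 1 or shControl 2 it was 0.68 (unadjusted p = 0.114 and 0.116 by edgeR). Without shPTBP1 1, 2 or 3 it was 0.93, 0.87 and 0.88 (unadjusted p = 0.0706, 0.0866 and 0.0849 by edgeR). Without shControl 3 it was 1.44 ± 0.15 SE (adjusted p = 0.0322), the only setting in which a receptor passed the threshold, and 0.674% of all genes tested passed in that setting. With both libraries numbered 3 left out it was 1.43 (adjusted p = 0.0656, with 0.319% of all genes tested passing). No gene of over 100 counts overlaps PPARG, whose gene spans chr3:12287368-12434356.

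THRB, the thyroid hormone receptor that predominates in liver, was low in all libraries. It was at 0.47, 0.38 and 0.40 FPKM in libraries labelled shPTBP1, against 0.20, 0.23 and 0.35 FPKM in libraries labelled shControl. The groups did not overlap, with shControl 3 again nearest to the libraries labelled shPTBP1 (log2 fold change 0.71 ± 0.25 SE, unadjusted p = 0.0244, adjusted p = 0.798 by edgeR). Without shControl 3 the log2 fold change was 0.95 (adjusted p = 0.103). Without shControl 1 or 2 it was 0.57 and 0.63 (unadjusted p = 0.0715 and 0.0746 by edgeR). Without shPTBP1 1, 2 or 3 it was 0.62, 0.77 and 0.73 (unadjusted p = 0.0814, 0.0413 and 0.0503 by edgeR).

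NR2F1 (COUP-TFI) is an orphan receptor that mostly represses transcription and acts in development. It was at 10.4, 10.5 and 7.31 FPKM in libraries labelled shPTBP1, against 7.33, 7.09 and 6.14 FPKM in libraries labelled shControl. The groups overlapped by 0.02 FPKM, between shPTBP1 3 and shControl 1 (log2 fold change 0.48 ± 0.17 SE, unadjusted p = 0.0240, adjusted p = 0.798 by edgeR). In both groups the library numbered 3 was the lowest. NR2F2 (COUP-TFII), its nearest relative, was at 2.25, 2.36 and 2.31 FPKM in libraries labelled shPTBP1, against 3.19, 2.43 and 3.76 FPKM in libraries labelled shControl. Its groups did not overlap, by a margin of 0.07 FPKM at shControl 2, and the difference had an unadjusted p of 0.0536 (log2 fold change -0.41 ± 0.18 SE, adjusted p = 0.886 by edgeR). Without shControl 3 the log2 fold change of NR2F2 was -0.27 (adjusted p = 0.458). The antisense gene NR2F1-AS1 shares 2427 bases with NR2F1 and was at or below 0.84 FPKM.

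NR4A3 (NOR-1) belongs to the NR4A group, receptors without a known natural ligand whose RNA is induced within minutes to hours of many stimuli. It was at 4.69, 4.87 and 3.81 FPKM in libraries labelled shPTBP1, against 5.61, 5.86 and 7.01 FPKM in libraries labelled shControl. The groups lay 0.74 FPKM apart (log2 fold change -0.44 ± 0.14 SE, unadjusted p = 0.0160, adjusted p = 0.725 by edgeR). Without shPTBP1 3 it was -0.34 (unadjusted p = 0.0536, adjusted p = 0.980). The other NR4A genes, described after their values were seen, did not share this order. NR4A1 (NUR77) was at 2.98, 1.64 and 2.05 FPKM in libraries labelled shPTBP1 and at 1.72, 1.74 and 1.70 FPKM in libraries labelled shControl (log2 fold change 0.40, adjusted p = 0.953, and 0.13 without shPTBP1 1). NR4A2 (NURR1) was at 9.47, 9.60 and 4.39 FPKM in libraries labelled shPTBP1 and at 8.45, 8.20 and 7.89 FPKM in libraries labelled shControl (log2 fold change -0.04, adjusted p = 0.996), and shPTBP1 3 was its one low library.

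ESR2, oestrogen receptor beta, had the largest negative difference among tested receptors, at a very low level. It was at 0.03 FPKM in each of the libraries labelled shPTBP1, against 0.08, 0.08 and 0.05 FPKM in libraries labelled shControl. The groups did not overlap, at counts of 26, 30 and 22 in libraries labelled shPTBP1, against 64, 74 and 39 in libraries labelled shControl (log2 fold change -1.20 ± 0.40 SE, unadjusted p = 0.0200, adjusted p = 0.764 by edgeR). The gene shares 142202 bases with SYNE2 on the opposite strand, which was at 2.52, 3.06 and 2.00 FPKM in libraries labelled shPTBP1 and at 1.35, 1.92 and 2.16 FPKM in libraries labelled shControl, and 8682 bases with AL161756 on the same strand. ESR1, oestrogen receptor alpha, did not exceed 0.04 FPKM in any library.

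**Figure D3:**
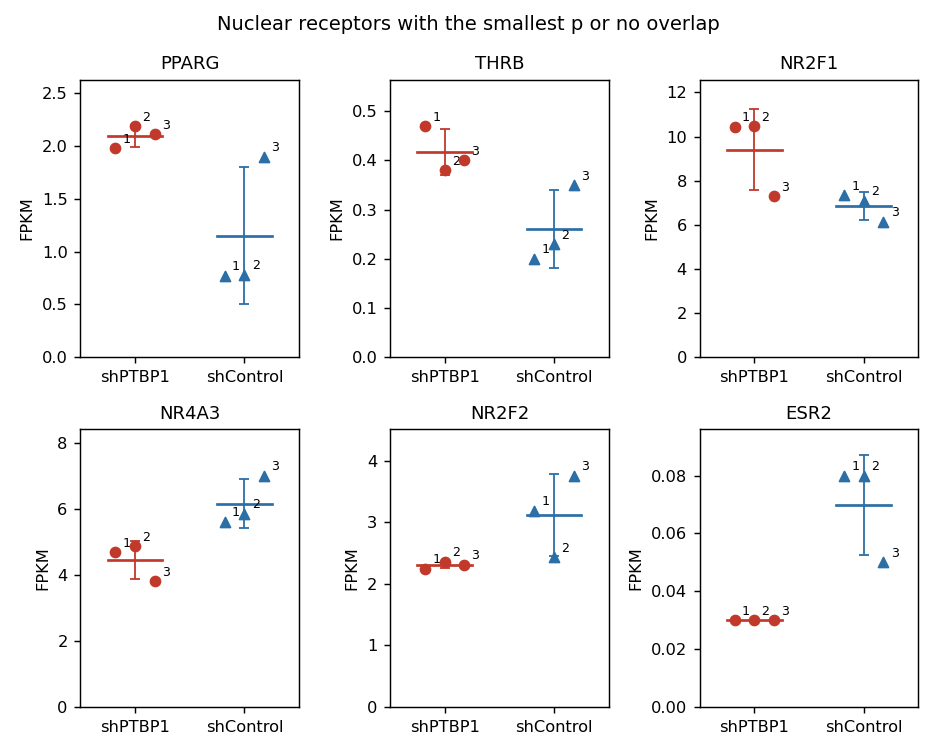
FPKM of PPARG, THRB, NR2F1, NR4A3, NR2F2 and ESR2 in libraries labelled shPTBP1 (red circles, left) and shControl (blue triangles, right), each point with its replicate number, horizontal lines at the mean and bars of 1 SD (3 libraries per group). Every shPTBP1 point lies above every shControl point for PPARG and THRB and below for NR4A3, NR2F2 and ESR2, and the shControl 3 point is the nearest to the other group for PPARG, THRB and ESR2.

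Some receptors differed more between libraries of 1 group than between the groups. NR3C1, the receptor with the next highest mean level after RXRB, was at 6.66, 4.47 and 10.9 FPKM in libraries labelled shPTBP1, against 10.5, 12.6 and 11.7 FPKM in libraries labelled shControl. The shPTBP1 1 and 2 libraries were below all others, and shPTBP1 3 fell within the group labelled shControl. The log2 fold change was -0.62 ± 0.30 SE (adjusted p = 0.920 by edgeR), without shPTBP1 3 it was -1.04 (adjusted p = 0.542) and without shPTBP1 2 it was -0.36 (adjusted p = 1.00). THRA, chosen after its values were seen, was at 8.70, 6.79 and 3.23 FPKM in libraries labelled shPTBP1 and at 2.96, 7.70 and 6.71 FPKM in libraries labelled shControl. One library in each group was low, shPTBP1 3 and shControl 1, and the means were 6.24 FPKM in libraries labelled shPTBP1 and 5.79 FPKM in libraries labelled shControl (log2 fold change 0.14 ± 0.43 SE, adjusted p = 0.994). THRA shares 1075 bases at its end with NR1D1 (REV-ERB-alpha) on the opposite strand, which was at 3.26, 2.98 and 2.89 FPKM in libraries labelled shPTBP1 and at 3.62, 2.87 and 3.53 FPKM in libraries labelled shControl. It also shares 2926 bases with MED24, which was at 6.69 to 7.02 FPKM in libraries labelled shPTBP1 and at 6.96 to 8.87 FPKM in libraries labelled shControl.

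**Figure D4:**
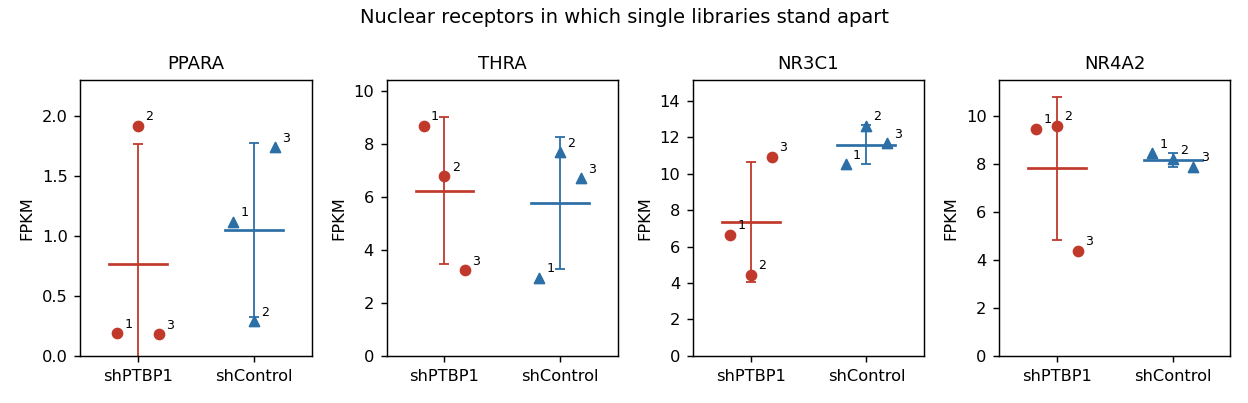
FPKM of PPARA, THRA, NR3C1 and NR4A2 in libraries labelled shPTBP1 (red circles, left) and shControl (blue triangles, right), with replicate numbers, means and bars of 1 SD (3 libraries per group). PPARA takes 0.18 to 0.29 FPKM in 3 libraries and 1.12 to 1.92 FPKM in the other 3 across both labels, THRA is low in shPTBP1 3 and shControl 1, NR3C1 is low in shPTBP1 1 and 2, and NR4A2 is low in shPTBP1 3.

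The remaining receptors with measurable RNA are given by their ranges. VDR, the vitamin D receptor, ranged from 7.90 to 8.66 FPKM in libraries labelled shPTBP1 and from 5.88 to 7.94 FPKM in libraries labelled shControl, an overlap of 0.04 FPKM (log2 fold change 0.32 ± 0.14 SE, unadjusted p = 0.0563, adjusted p = 0.894 by edgeR). NR1D2 (REV-ERB-beta), a clock repressor, ranged from 4.06 to 7.85 FPKM in libraries labelled shPTBP1 and from 3.95 to 7.24 FPKM in libraries labelled shControl. NR1H2 stayed between 8.10 and 8.18 FPKM in libraries labelled shPTBP1 and between 7.37 and 8.88 FPKM in libraries labelled shControl. PPARD, NR1D1, NR2C1 (TR2) and RARA had means over 6 libraries of 2.84 to 5.38 FPKM and adjusted p-values of 0.950 to 0.992. NR6A1 (GCNF) and NR3C2 averaged 0.463 and 0.25 FPKM over 6 libraries, with log2 fold changes of 0.19 and 0.52 that did not pass. Leaving out 1 library put that of NR3C2 between 0.27 (without shControl 1) and 0.89 (without shControl 3). RORA and RORB, the activators that oppose REV-ERB in the clock, and RARB stayed at or below 0.12 FPKM.

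The cofactors and known targets of these receptors were read from 12 lists holding 131 distinct genes, of which 95 were tested. None had an adjusted p under 0.05 (edgeR), the smallest being 0.559, and 7 of 95 had an unadjusted p under 0.05, beside 5.69% of all genes tested. Of 17 coactivator and mediator genes, all tested, 0 passed at an unadjusted p under 0.05. Of the 17, 11 had a negative log2 fold change, beside 10089 of all 19393 genes tested, and their median was -0.16. NCOA4 and CARM1 were the 2 of 17 whose groups did not overlap, both lower in libraries labelled shPTBP1. Of all genes tested 11.9% did not overlap. NCOA4 was at 62.8, 62.8 and 62.6 FPKM in libraries labelled shPTBP1 against 69.4, 73.3 and 73.0 FPKM in libraries labelled shControl. Of 12 corepressor genes 0 passed, with a median log2 fold change of 0.01. TBL1X was the 1 corepressor whose groups did not overlap. It was at 10.47, 11.25 and 10.47 FPKM in libraries labelled shPTBP1, against 12.34, 13.12 and 11.94 FPKM in libraries labelled shControl. The FXR list had 8 of 9 genes below 0.1 FPKM in every library, CYP7A1, the rate-limiting enzyme of bile acid synthesis, among them. Of the PXR and CAR list 5 of 9 were below 0.1 FPKM in every library, among them CYP3A4 and CYP2B6. In the same list 2 were at 1 FPKM or more in every library, ABCC2 (19.27 to 30.36 FPKM) and ALAS1 (27.54 to 36.45 FPKM).

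Of the 6 tested LXR targets, 2 were higher at an unadjusted p under 0.05 and 0 lower, beside 3.58% and 2.11% of all genes tested. SMPDL3A lay lower without overlap, as did 6.72% of all genes tested. It was at 5.81, 6.33 and 5.51 FPKM in libraries labelled shPTBP1, against 7.84, 7.35 and 6.98 FPKM in libraries labelled shControl (unadjusted p = 0.0598 by edgeR). SCD, the desaturase that makes monounsaturated fatty acids, was at 426, 431 and 276 FPKM in libraries labelled shPTBP1, against 177, 185 and 274 FPKM in libraries labelled shControl. The groups did not overlap, though shPTBP1 3 and shControl 3 were nearly equal (log2 fold change 0.86 ± 0.22 SE, adjusted p = 0.559 by edgeR). DESeq2 gave SCD an adjusted p of 0.0475, with 0.726% of all genes with an adjusted p passing. With both libraries numbered 3 left out edgeR gave SCD a log2 fold change of 1.25 and an adjusted p of 0.0384. In that setting 0.319% of all genes tested passed. SREBF1, the regulator of fatty acid synthesis, was at 9.08, 13.4 and 11.3 FPKM in libraries labelled shPTBP1, against 5.29, 7.37 and 8.90 FPKM in libraries labelled shControl. The groups came within 0.18 FPKM of each other (log2 fold change 0.68 ± 0.21 SE, adjusted p = 0.718 by edgeR). The sterol exporters ABCA1, ABCG5 and ABCG8 of the same list were listed at 0 FPKM in all libraries, ABCA1 with up to 4 counts.

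The other 5 genes at an unadjusted p under 0.05 came from the lists that follow, beside 3.58% of all genes tested higher and 2.11% lower. These were glucocorticoid targets (1 lower of 7 tested), PPAR targets (1 lower of 8) and oestrogen and oestrogen-related receptor targets (1 lower of 6, the same gene as for PPAR). PXR and CAR targets (1 lower of 4), vitamin D and thyroid receptor targets (1 higher of 4) and clock genes (1 higher of 14) held the rest. SGK1, a kinase induced by glucocorticoids, was at 25.9, 27.1 and 23.1 FPKM in libraries labelled shPTBP1, against 29.1, 35.8 and 31.4 FPKM in libraries labelled shControl, without overlap (log2 fold change -0.31, adjusted p = 0.822 by edgeR). PDK4, which restrains glucose oxidation and is a target of PPARs and ESRRA, was at 5.75, 6.57 and 5.57 FPKM in libraries labelled shPTBP1, against 10.3, 8.56 and 6.68 FPKM in libraries labelled shControl (log2 fold change -0.49, adjusted p = 0.824 by edgeR). Its groups came within 0.11 FPKM at shControl 3, and without shControl 1 the log2 fold change was -0.32. ABCB1, a drug exporter of the PXR and CAR list, was at 0.21, 0.23 and 0.21 FPKM in libraries labelled shPTBP1, against 0.46, 0.55 and 0.32 FPKM in libraries labelled shControl (log2 fold change -1.01, adjusted p = 0.627 by edgeR). HR, a corepressor and thyroid hormone target, was at 2.96, 3.13 and 2.2 FPKM in libraries labelled shPTBP1, against 1.03, 1.33 and 2.46 FPKM in libraries labelled shControl, with shControl 3 above shPTBP1 3 (log2 fold change 0.81, adjusted p = 0.866 by edgeR). Without shControl 3 that of HR was 1.24 (adjusted p = 0.0787). Without shControl 1 or 2 that of HR was 0.58 and 0.70 (unadjusted p = 0.0970 and 0.110 by edgeR). Lastly, HLF, a clock output factor, was at 0.13, 0.12 and 0.12 FPKM in libraries labelled shPTBP1, against 0.06, 0.07 and 0.04 FPKM in libraries labelled shControl (log2 fold change 1.18, adjusted p = 0.639 by edgeR). The lists of retinoic acid targets and of ligand synthesis, transport and clearance had 0 genes at that level of 6 and 13 tested. TGM2 of the retinoic acid list was at 6.84, 7.12 and 6.65 FPKM in libraries labelled shPTBP1 and at 3.51, 3.82 and 11.8 FPKM in libraries labelled shControl, with shControl 3 the highest library (unadjusted p = 0.754 by edgeR).

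**Figure D5:**
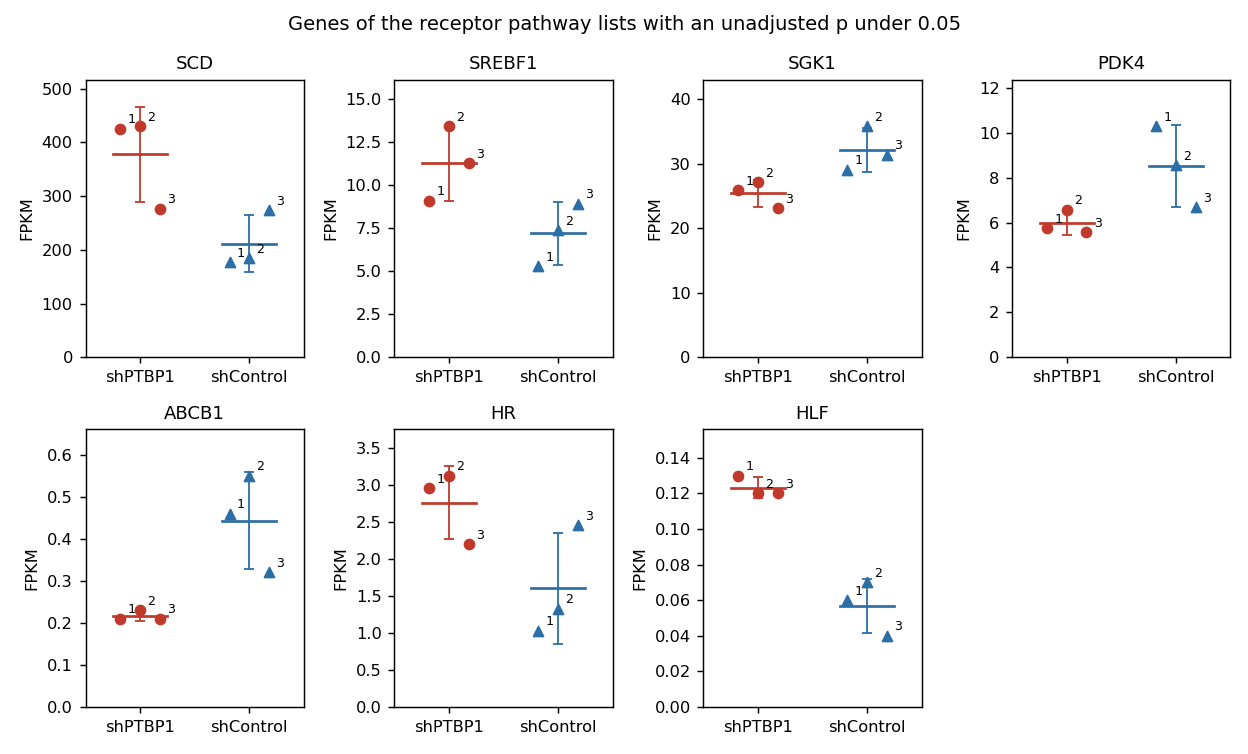
FPKM of SCD, SREBF1, SGK1, PDK4, ABCB1, HR and HLF, the genes of the receptor pathway lists at an unadjusted p under 0.05, in libraries labelled shPTBP1 (red circles, left) and shControl (blue triangles, right), with replicate numbers, means and bars of 1 SD (3 libraries per group). The groups lie apart for all but HR, and for SCD, SREBF1, PDK4 and ABCB1 the shControl 3 point is the nearest to the other group.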

How the data were processed

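RNA of 6 libraries, 3 labelled shPTBP1 and 3 labelled shControl, was isolated with Trizol, selected on oligo(dT) and made into strand-marked libraries. The submitters' processing notes name cutadapt 1.9, FastQC, HISAT2 2.2.1, StringTie and the hg38 build, and the release of the gene annotation is not given in the sources used here. The authors deposited, for each gene and library, FPKM values (scaled to transcript length and library size, to 2 decimals) and estimated counts, of which 32.5% to 34.4% of those from 1 to 40 were multiples of 4, so they are not plain read counts. Levels and overlaps between groups were read from FPKM. Differences were tested on the counts with edgeR 4.0.16 (R 4.3.3) using TMM normalization, filterByExpr (19393 of 58825 genes kept), the two-sided quasi-likelihood F test and Benjamini-Hochberg adjustment over all genes tested, with calls at an adjusted p under 0.05. Standard errors are the log2 fold change divided by the square root of the F statistic. DESeq2 1.42.0 and limma 3.58.1 on log2(FPKM + 1) and log2(FPKM + 0.1) were alternatives, as were other size factors, no filter, leaving out each library, the libraries numbered 1 and 2 only, a block on the replicate number and a covariate for number 3. The study's methods state no test for these data. Total counts per library ran from 68704509 to 85317970.

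The receptors, the target lists and the marker lists were chosen with earlier results of these data known. Values in every library are given for liver-enriched receptors with at least 0.1 FPKM in a library and for the 6 highest receptors. They are also given for receptors with an unadjusted p under 0.05 or without overlap at a mean of at least 0.1 FPKM. Each target list adds up to 4 genes with the smallest p under 0.05. Genes named outside this rule include THRA, NR4A1, NR4A2, NR1D2, NR3C2, VDR, NR1H2, NCOA4, CARM1, TBL1X, TGM2, SMPDL3A, ABCC2, ALAS1, PTBP2, HBB and ISG15, chosen after their values were seen. Genes that overlap a receptor, NR1D1 among them, are given beside that receptor, except those that overlap NR3C1, NR6A1, RARA, RARB and RORA. A gene of 2 lists is not analysed here. Figures were drawn with matplotlib 3.10.9. Promoter sequences came from RefSeq.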

Additional observations from a re-analysis of the deposited data

How the results depend on the processing

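No receptor was called in 14 of 15 alternatives. Leaving out 1 library gave 0 to 1 receptor calls (1, PPARG, without shControl 3), 1 to 6 receptors at an unadjusted p under 0.05 (1 without shPTBP1 1, 2 without shPTBP1 3, 3 without shControl 2), beside 3.79% to 16.6% of all genes, 5 to 11 receptors of 33 without overlap, beside 18% to 37% of all genes, 0 to 1 calls in the target lists (1, TGM2, without shControl 3) and 2 to 136 calls over all genes (136 without shControl 3). Over all genes the 6 calls became 166 by DESeq2, 63 with numbers 1 and 2 only, 3 with number 3 as a covariate and 1 by limma without the filter on low FPKM. In the target lists, DESeq2 and numbers 1 and 2 only each called 1 gene, SCD. Same-numbered libraries had correlations of -0.06, 0.12 and 0.02 in their deviations from the group means, which does not show a pairing by number, although both libraries numbered 3 share the low globin RNA. With a replicate block 0 genes were called over all genes and 0 receptors. The 21 receptors at 1 FPKM or more in every library became 22 at 0.5 FPKM and 8 at 5 FPKM. Receptors without overlap numbered 8 of 33 in TMM-normalized CPM (11.9% of all genes) and 16 of 33 with numbers 1 and 2 only (51.0% of all genes). Log2 fold changes without 1 library were not followed for NR1H2, PPARD, RARA, NR1D1, NR6A1, ESR1, RORA, RORB and HNF4G. Among the tested receptors that were followed, they changed sign for NR2F6 (-0.088 to 0.024), RXRB (-0.16 to 0.063), NR2C2 (-0.12 to 0.092) and RXRA (-0.021 to 0.098). They also changed sign for PPARA (-2.45 to 0.12), THRA (-0.18 to 0.45), NR4A2 (-0.21 to 0.24) and NR1D2 (-0.25 to 0.33). All of these had an adjusted p above 0.9 in the fit of 6 libraries. With numbers 1 and 2 only the log2 fold change was 0.021 for RXRB, 0.58 for PPARA and 0.20 for NR4A2. The causes were not tested. At 3 libraries a group and these depths, the 18 receptors averaging below 0.1 FPKM had at most 85 counts in a library.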
